A study of Mus musculus with 18 samples.

Results

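Mouse embryonic fibroblasts (MEFs) that had grown in Rcm and were then held in Scm for 24 h (R-Scm 24 h) were compared with MEFs kept in Scm, to ask which genes still differed after a day in the same medium. The 6 libraries of this comparison, 3 per group, were taken by their titles from a series of 18 libraries in 6 groups. The cells were a wild-type MEF line obtained from ATCC, grown in high-glucose DMEM with 10% fetal bovine serum (FBS). Scm held the serum named S-FBS, under which MEFs were sensitive to ferroptosis, a death driven by lipid peroxidation, and Rcm held R-FBS, under which they were resistant. The other groups stayed in Rcm throughout, spent only 12 h in Scm after Rcm (R-Scm 12 h), or went the opposite way and spent 12 or 24 h in Rcm after Scm (named S-Rcm with their hours). No group was moved into fresh medium of the kind it came from, and the titles of the libraries kept in Scm or Rcm give 0 h. The exchange itself, the time point and the former medium therefore cannot be told apart in this comparison alone. The labels do not say whether libraries came from separate cultures, and p-values therefore measure only the spread between libraries.

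Serum supplies lipids, hormones, growth factors and binding proteins, and fibroblasts answer it through several routes. Growth factors and lysophospholipids act on the actin cytoskeleton and, through SRF and YAP, on genes of contraction and matrix. When sterols are short, SREBP factors switch on cholesterol synthesis, and a supply of sterols switches it off. Type I interferons act through a receptor, transcription factors that include IRF9, and the response element that these bind, and they raise antiviral proteins such as the IFIT, OAS and guanylate-binding (GBP) families.

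Total counts of the 6 libraries ran from 14534906 to 20313715. Levels are given as CPM, each gene's count relative to the depth of its library, scaled between libraries but not by gene length, so that they compare libraries and not genes. Of 14 fibroblast markers, 12 reached 1 CPM in at least 1 of the 6 libraries, while Fap and Lum were below it in all 6. The 14 markers summed to 9754 to 9854 CPM in Scm and 9304 to 12390 CPM in R-Scm 24 h. Macrophage markers summed to 2.49 to 3.30 CPM and 2.85 to 3.53 CPM, with Adgre1, Itgam, Csf1r and Ptprc under 1 CPM. In bulk RNA, fewer cells of a type and less RNA per cell cannot be told apart.

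The R-Scm 24 h libraries were not alike. By the root mean square of log2 differences over all genes tested, replicate 1 lay nearer to the mean of Rcm (0.431) than to the mean of Scm (0.560). Replicate 3 lay nearer to Scm (0.419) than to Rcm (0.515), and replicate 2 was about as far from both (0.540 from Scm and 0.532 from Rcm). Among the libraries of MEFs kept in Rcm, replicate 3 lay nearer to Scm (0.459) than to the other Rcm libraries (0.496). A library was left out of the mean of its own group. The 3 Scm libraries differed from each other by a chi-square of 10.2 to 14.7 per degree of freedom and the 3 R-Scm 24 h libraries by 32.1 to 45.1, so no library repeated another. The counts of DEGs and of list members called are given with and without R-Scm 24 h replicate 1 where that library changes them.

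After 24 h in Scm, MEFs from Rcm held more RNA of interferon-stimulated genes than MEFs kept in Scm. They also held more RNA of the retinaldehyde dehydrogenase Aldh1a1, its close relative Aldh1a7 and some matrix and contractile genes (Thbs1, Ccn1, Ccn2, Tagln and Cnn1). They held less RNA of Slc6a4, the serotonin transporter, of Tafa5, a secreted chemokine-like protein, and of the glutathione transferase Gsta4. For Tagln, Cnn1 and, by a small margin, Thbs1 every R-Scm 24 h library was also above every Rcm library. Cholesterol synthesis genes did not pass the test in either direction. A gene was called differentially expressed (a DEG) where edgeR's quasi-likelihood test, fitted on all 18 libraries, gave it an adjusted p (Benjamini-Hochberg) under 0.05 and its log2 fold change lay outside -0.58 to 0.58. Of 15381 genes tested, 91 were DEGs (0.592%), of which 78 were higher in R-Scm 24 h (0.507%) and 13 were lower (0.0845%). The median log2 fold change over all genes tested was 0.0033, a value that the scaling between libraries holds near 0.

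Part of the calls lay close to the threshold. The adjusted p was above 0.04 for 32 of the 91 DEGs, and a further 9 genes had an adjusted p between 0.05 and 0.06. In the 3 against 3 libraries 2299 genes (14.9%) did not overlap, 1235 of them higher in R-Scm 24 h (8.03%), and all 91 DEGs were among the genes that did not overlap. Without R-Scm 24 h replicate 1 there were 77 DEGs, 54 higher and 23 lower, of which 51 were among the 91. Without that library and without Rcm replicate 3 there were 81 DEGs, 58 higher and 23 lower. The count also rested on the Scm libraries, with 17 to 22 DEGs when any of the 3 was left out.

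**Figure D1:**
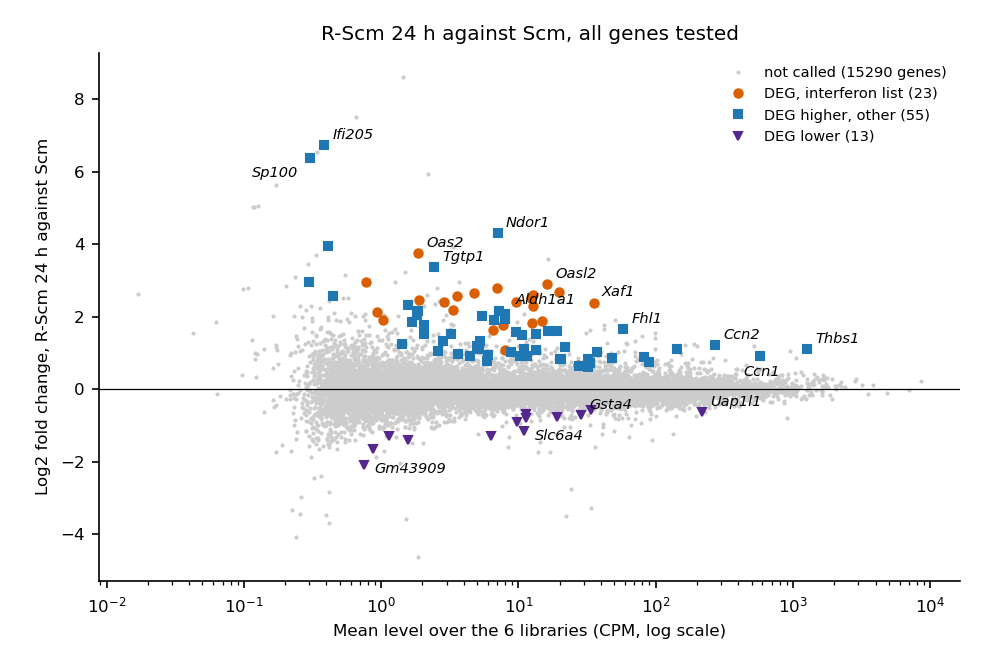
Log2 fold change of R-Scm 24 h against Scm (vertical axis) against the mean level over the 6 libraries (horizontal axis, CPM, log scale), with a point for each of the 15381 genes tested. DEGs of the interferon list (circles), the other higher DEGs (squares) and the 13 lower DEGs (triangles) are marked, and Ifi205 and Sp100, which had 0 counts in every Scm library, stand highest at 6.73 and 6.38.

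The interferon-stimulated genes formed the largest group. Of 46 list members tested, 23 were called higher and 0 lower, beside 0.507% and 0.0845% of all genes tested. The list's median log2 fold change was 1.88 (range 0.25 to 3.76), beside 0.0033 over all genes. In 42 of the 46 members the groups did not overlap, beside 14.9% of all genes. Without R-Scm 24 h replicate 1 the median was 1.24 and 14 members were called. With any Scm library left out 1 to 5 members were called, with edgeR on the compared groups alone 2, and with DESeq2 on all 18 libraries 35.

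Promoter sequences of RefSeq (build GRCm38.p6), from 250 bases before to 50 after each start, were searched for the core of the interferon response element, GAAANNGAAA, on both strands and with overlapping matches counted. A gene was counted where any of its windows held the core. The core stood in 1079 of the 27025 genes with a promoter window (3.99%). It stood in 9 of the 16 interferon-list DEGs that had a window (56.2%), in 8 of 39 other higher DEGs (20.5%) and in 0 of 8 lower DEGs. Of the interferon-list genes that were not called, 12 of the 18 with a window held it (66.7%). The core therefore did not separate called from uncalled members of the list. The other higher DEGs with a match were Apol10b, Apol9a, Cxcl10, Edn1, Gbp2b, Ifi205, Lgals9 and Tgtp1. A match is only a run of letters, and binding was not measured. Stretches from 3 interferon-list DEGs with 3, 2 and 1 matches follow, 5′ to 3′ on the gene's strand, with the matching bases in capitals. They lie at chr4:156200819-156200938 (minus strand) for Isg15, at chr5:120907526-120907645 (minus strand) for Oas1a and at chr11:58199436-58199555 (plus strand) for Igtp, upstream of each start site.
Isg15: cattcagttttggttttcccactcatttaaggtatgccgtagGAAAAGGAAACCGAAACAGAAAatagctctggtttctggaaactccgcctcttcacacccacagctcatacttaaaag
Oas1a: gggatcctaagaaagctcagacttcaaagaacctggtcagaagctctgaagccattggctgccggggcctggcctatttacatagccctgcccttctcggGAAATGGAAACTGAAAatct
Igtp: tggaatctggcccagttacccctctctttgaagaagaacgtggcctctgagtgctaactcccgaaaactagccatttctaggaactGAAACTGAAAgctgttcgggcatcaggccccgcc

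Among the antiviral effectors, Ifit1, which binds foreign RNA caps and blocks their translation, was at 4.71, 4.99 and 6.32 CPM in the Scm libraries and at 61.6, 22.5 and 18.3 CPM in R-Scm 24 h replicates 1 to 3. Its log2 fold change was 2.68 ± 0.43 (SE, adjusted p = 0.0116). The groups did not overlap, and replicate 1 stood well above the other two. Isg15, a ubiquitin-like protein joined to other proteins, was at 6.47, 5.68 and 7.01 CPM in Scm and at 38.3, 15.1 and 17.2 CPM in R-Scm 24 h (log2 fold change 1.88 ± 0.31, adjusted p = 0.0112). Its remover Usp18 was at 3.58, 4.09 and 3.02 CPM in Scm and at 44.7, 11.4 and 9.53 CPM in R-Scm 24 h, a difference of 2.61 ± 0.48 on the log2 scale (adjusted p = 0.0267). Both genes again had their highest level in replicate 1.

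Of the oligoadenylate synthetases and their relatives, which sense double-stranded RNA, Oas2, Oasl2 and Oas1a were called, and Oas1b, Oas1g, Oas3 and Oasl1 were not (adjusted p from 0.0658 to 0.393). Oas2 was at 0.428, 0.208 and 0.0687 CPM in Scm and at 8.13, 1.14 and 1.12 CPM in R-Scm 24 h, the largest log2 fold change of the list at 3.76 ± 0.81 (adjusted p = 0.0498). Oasl2 was at 3.81 to 3.85 CPM in Scm and at 60.6, 13.8 and 11.5 CPM in R-Scm 24 h (2.90 ± 0.51, adjusted p = 0.0212). Both sat highest in replicate 1, and the lower pair of R-Scm 24 h libraries still stood above all 3 Scm libraries. Oas1a (2.66), Ifi44 (2.79), Xaf1 (2.39), Mx2 (2.57), Zbp1 (2.96), Parp14 (2.41) and Rtp4 (1.78) were called as well, as were Ifit3 (2.52), Ifit3b (2.20) and Ifi35 (0.66).

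The GBP and immunity-related GTPase families, which act on the membranes around intracellular microbes, contributed Gbp2, Gbp3 (2.30), Gbp7 (2.42), Igtp (1.64) and Iigp1 (1.92) from the list. Gbp2 was at 5.24, 4.99 and 6.18 CPM in Scm and at 31.2, 14.9 and 12.6 CPM in R-Scm 24 h (log2 fold change 1.84 ± 0.28, adjusted p = 0.00681). Tgtp1, an immunity-related GTPase outside the list and named by the size of its change, as was Gbp9 (2.33), went from 0.374, 0.485 and 0.412 CPM to 7.01, 2.46 and 3.72 CPM (3.36 ± 0.44, adjusted p = 0.00192). Each of the 3 R-Scm 24 h libraries was above each Scm library for both genes. Of the antigen-processing genes in the list, the transporter Tap1 had a log2 fold change of 1.07 and the immunoproteasome subunit Psmb8 one of 2.13.

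Cmpk2, a mitochondrial nucleotide kinase, was among the interferon-list genes least tied to replicate 1. It was at 0.481, 0.624 and 0.618 CPM in Scm and at 4.01, 3.03 and 2.55 CPM in R-Scm 24 h (log2 fold change 2.47 ± 0.34, adjusted p = 0.00274), and it was a DEG in all 13 alternative fits that tested it. Cxcl10, a chemokine for T cells, behaved alike, with 5.72, 4.30 and 6.46 CPM in Scm against 18.3, 14.7 and 14.0 CPM in R-Scm 24 h (1.51 ± 0.18, adjusted p = 0.00131). Its R-Scm 24 h libraries lay close together and all above the highest Scm library.

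The 23 interferon-list members that were not called all had a positive log2 fold change, from 0.25 for Ifit2 to 2.96 for Ifih1, with an adjusted p from 0.0548 for Ifi27 to 0.666 for Psmb9. Transcription factors of the pathway were among them. Irf7 had a log2 fold change of 1.31 (adjusted p = 0.0855) and Irf9 one of 1.09 (adjusted p = 0.0924). These factors and the members just named were chosen after their values were seen.

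**Figure D2:**
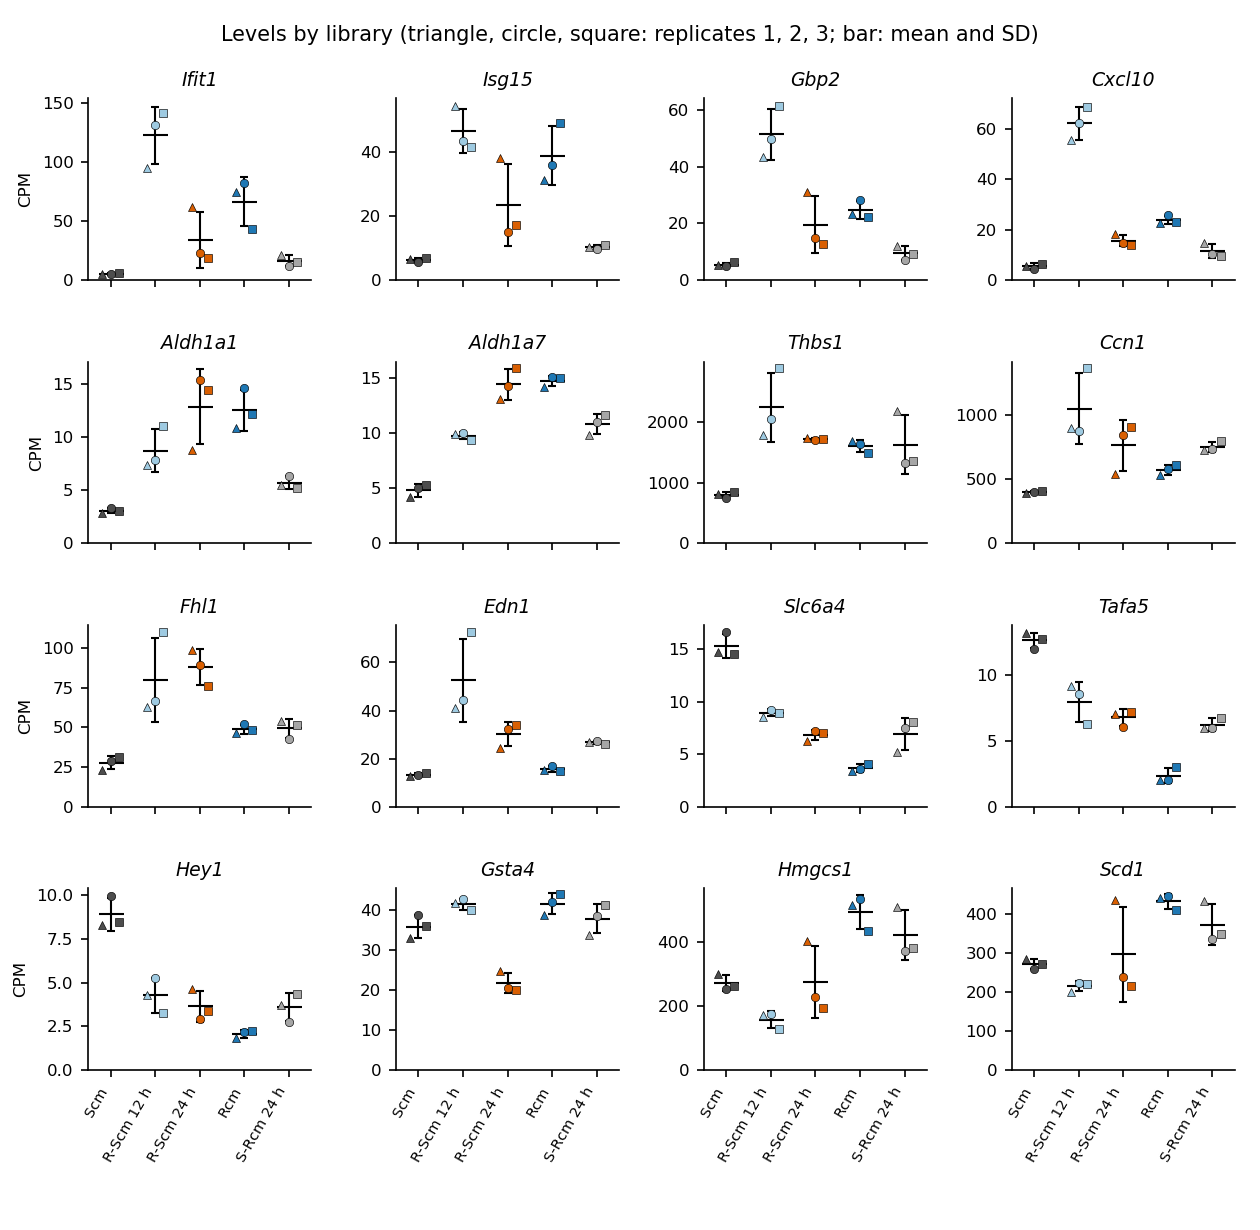
Level of 16 genes in CPM (vertical axes, from 0) in the libraries of Scm, Rcm and 3 of the exchange groups, with triangle, circle and square for replicates 1, 2 and 3 and bars for the mean and SD of 3 libraries. R-Scm 24 h replicate 1 stands above replicates 2 and 3 for Ifit1 (61.6 against 22.5 and 18.3 CPM), Isg15, Gbp2, Hmgcs1 and Scd1, while the 3 libraries lie close for Thbs1 and Slc6a4.

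The levels of MEFs kept in Rcm and of R-Scm 12 h give the starting point and the course of these genes. Ifit1 was at 74.4, 82.0 and 43.1 CPM in Rcm, at 95.5, 132 and 141 CPM in R-Scm 12 h, and then at the 61.6, 22.5 and 18.3 CPM of R-Scm 24 h. Cxcl10 was at 22.8, 25.8 and 23.2 CPM in Rcm and at 55.7, 62.5 and 68.9 CPM in R-Scm 12 h. For both genes the R-Scm 24 h libraries lay below those of R-Scm 12 h and above those of Scm. The median of the interferon list in each library, as log2 CPM minus the mean of Scm, was 2.91, 2.96 and 3.19 after 12 h in Scm and 2.24, 1.23 and 1.06 after 24 h, beside 2.21, 2.47 and 2.26 in Rcm. At that list median, R-Scm 24 h replicate 1 was within the Rcm libraries and replicates 2 and 3 were below all of them.

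**Figure D3:**
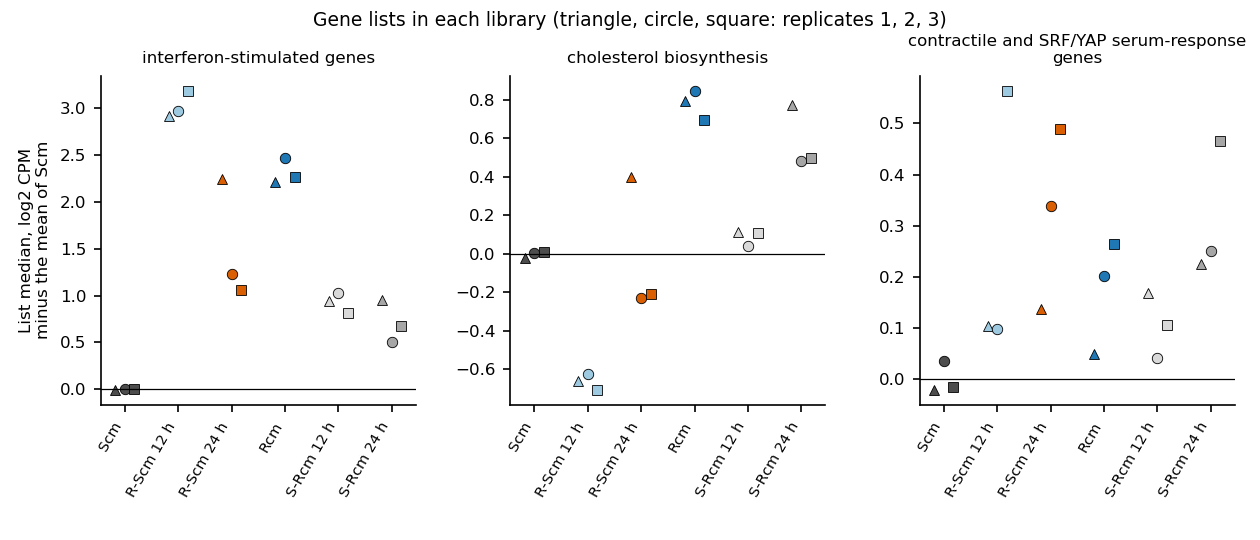
Median over the members of 3 gene lists in each library, as log2 CPM minus the mean of the Scm libraries (vertical axes), for the 6 groups with triangle, circle and square for replicates 1, 2 and 3. The interferon median is above 0 in every library outside Scm, and the cholesterol median of R-Scm 24 h is 0.40 in replicate 1 but -0.23 and -0.21 in replicates 2 and 3.

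Chemokines, cytokines and acute-phase genes gave 3 higher DEGs of 17 tested and 0 lower, beside 0.507% and 0.0845% of all genes. Their median was 0.61, beside 0.0033 over all genes. Besides Cxcl10 the DEGs were Ccl5 and C3. Ccl5, a chemokine for T cells and monocytes, was at 0.802, 0.832 and 0.481 CPM in Scm and at 3.59, 2.46 and 2.80 CPM in R-Scm 24 h (log2 fold change 2.05 ± 0.28, adjusted p = 0.00274). C3, the central complement protein, was at 25.5 to 25.9 CPM in Scm and at 32.3, 39.6 and 45.3 CPM in R-Scm 24 h (0.61 ± 0.13, adjusted p = 0.0498). Here replicate 1 was the lowest of the R-Scm 24 h libraries, unlike for the antiviral genes.

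The aldehyde dehydrogenases Aldh1a1 and Aldh1a7 were among the firmest DEGs. Aldh1a1, which makes retinoic acid from retinaldehyde, was at 2.89, 3.33 and 3.02 CPM in Scm, at 10.9, 14.6 and 12.1 CPM in Rcm and at 8.84, 15.4 and 14.4 CPM in R-Scm 24 h. Its log2 fold change against Scm was 2.06 ± 0.24 (adjusted p = 0.0011), and against Rcm it was 0.04 ± 0.22 (adjusted p = 0.974). Aldh1a7, its neighbour on chromosome 19, was at 4.17, 4.99 and 5.29 CPM in Scm, at 14.2, 15.04 and 14.9 CPM in Rcm and at 13.1, 14.3 and 15.9 CPM in R-Scm 24 h. It had the lowest adjusted p of all genes (log2 fold change 1.58 ± 0.13, adjusted p = 2.54e-05), and its log2 fold change against Rcm was -0.03 ± 0.13 (adjusted p = 0.966). For both genes the R-Scm 24 h libraries lay around the Rcm level and far from Scm, and both were DEGs in all 14 alternative fits.

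The rest of the retinoid list did not rise with them as a group. Of its 10 members tested, Aldh1a1 alone was called, 4 had a positive log2 fold change, and the list's median was -0.24. In edgeR's test 7 members had an unadjusted p under 0.05. In 8 members the groups did not overlap, beside 14.9% of all genes. When R-Scm 24 h replicate 1 was left out, the median was -0.18 and 2 of 11 were called, with Cyp26b1, which degrades retinoic acid, as the other (log2 fold change 0.99 ± 0.16, adjusted p = 0.00593). Dhrs9, a retinol dehydrogenase, was higher at 14.6, 15.02 and 11.1 CPM against 7.17, 6.52 and 7.70 CPM in Scm (log2 fold change 0.93 ± 0.20, adjusted p = 0.0479). Lrp2, an uptake receptor for lipoproteins and vitamin carriers that lies beside Dhrs9, had a log2 fold change of 1.77 ± 0.32 (adjusted p = 0.0204). Aldh1a7, Dhrs9 and Lrp2 were chosen after their values were seen.

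Several matrix and contractile genes were higher in R-Scm 24 h. Thbs1, the matrix protein thrombospondin that activates TGF-beta, was at 812, 753 and 841 CPM in Scm and at 1735, 1704 and 1716 CPM in R-Scm 24 h (log2 fold change 1.10 ± 0.18, adjusted p = 0.00906). Ccn2, a matricellular target of YAP, was at 159, 168 and 161 CPM in Scm and at 377, 390 and 370 CPM in R-Scm 24 h (1.22 ± 0.21, adjusted p = 0.0125). For both genes the 3 R-Scm 24 h libraries were alike and near the level of Rcm, which was 1687, 1642 and 1496 CPM for Thbs1 and 372, 387 and 371 CPM for Ccn2. Ccn1, its relative, was at 389, 398 and 409 CPM in Scm, 530, 575 and 609 CPM in Rcm, and 537, 838 and 906 CPM in R-Scm 24 h (0.93 ± 0.17, adjusted p = 0.0211).

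Tagln, an actin-binding protein of smooth muscle, was at 84.1, 97.3 and 91.0 CPM in Scm and at 192, 180 and 219 CPM in R-Scm 24 h, above the 112, 133 and 167 CPM of Rcm (log2 fold change against Scm 1.12 ± 0.20, adjusted p = 0.0177). Cnn1, the calponin of smooth muscle, was at 3.10, 3.67 and 2.20 CPM in Scm, 4.18, 4.92 and 4.52 CPM in Rcm, and 7.83, 7.32 and 7.59 CPM in R-Scm 24 h (1.34 ± 0.23, adjusted p = 0.0141). Both genes were higher in each R-Scm 24 h library than in any library of Scm or Rcm, but their log2 fold changes against Rcm, 0.52 for Tagln (adjusted p = 0.337) and 0.74 for Cnn1 (adjusted p = 0.188), did not pass the test. The contractile and SRF/YAP list gave 4 higher DEGs of 29 tested and 0 lower, beside 0.507% and 0.0845% of all genes, with a median of 0.28. Without R-Scm 24 h replicate 1 it gave 5, with Ankrd1 added, and with an Scm library left out 0 or 1. Of 32 collagens and other matrix proteins Thbs1 alone was called, and the list's median of 0.28 became -0.01 without R-Scm 24 h replicate 1.

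The secreted proteases Adamts1 and Adamts5, which cut proteoglycans and lie next to each other on chromosome 16, were both higher. Adamts5 was at 7.49, 5.89 and 7.42 CPM in Scm and at 32.6, 14.3 and 13.4 CPM in R-Scm 24 h (log2 fold change 1.53 ± 0.33, adjusted p = 0.0499). Adamts1 was at 35.1, 30.4 and 36.0 CPM in Scm and at 86.7, 45.7 and 54.0 CPM in R-Scm 24 h (0.88 ± 0.19, adjusted p = 0.0498). As for the antiviral genes, replicate 1 was the highest, and the groups did not overlap. Without R-Scm 24 h replicate 1 neither passed edgeR's test, with 0.99 for Adamts5 (adjusted p = 0.14) and 0.56 for Adamts1 (adjusted p = 0.134). Of 14 alternative fits, Adamts5 was a DEG in 4 and Adamts1 in 5. Both genes were chosen after their values were seen.

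Some of the firmest DEGs lay above both steady media. Fhl1, a LIM-domain protein of muscle and stretched cells, was at 23.4, 28.5 and 31.3 CPM in Scm, 46.1, 51.8 and 48.0 CPM in Rcm, and 98.7, 89.0 and 75.9 CPM in R-Scm 24 h. Its log2 fold change was 1.67 ± 0.18 against Scm (adjusted p = 0.000489) and 0.85 ± 0.18 against Rcm (adjusted p = 0.0451), both DEGs. Edn1, the peptide endothelin that contracts vessels, was at 12.9, 13.2 and 14.1 CPM in Scm, 15.1, 16.9 and 14.9 CPM in Rcm, and 24.6, 32.4 and 34.0 CPM in R-Scm 24 h, with 1.18 ± 0.17 against Scm (adjusted p = 0.0047) and 0.96 ± 0.17 against Rcm (adjusted p = 0.0203). The Edn1 levels of Scm and Rcm were near each other, and all 3 R-Scm 24 h libraries stood clear of both. Cd24a, a small surface glycoprotein, was at 23.9, 26.1 and 23.6 CPM in Scm, 31.7, 34.1 and 28.9 CPM in Rcm, and 47.9, 54.2 and 48.2 CPM in R-Scm 24 h, with a log2 fold change of 1.03 ± 0.15 against Scm (adjusted p = 0.00411) and 0.67 against Rcm, where it missed the threshold (adjusted p = 0.0504). These 3 genes were chosen after their values were seen, and all 3 were DEGs against Scm in all 14 alternative fits.

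Other higher DEGs chosen in the same way served varied roles. Ccnd2, a D-type cyclin, was at 7.28 to 10.003 CPM in Scm and at 17.7, 18.1 and 18.6 CPM in R-Scm 24 h (log2 fold change 1.07 ± 0.17, adjusted p = 0.00684), whereas the DNA replication list (27 tested) and the mitosis list (25 tested) had 0 calls each, with 1 and 0 members at an unadjusted p under 0.05 and 0 by DESeq2. Prkd1, a protein kinase, went from 23.0, 20.9 and 21.5 CPM to 36.8, 32.4 and 32.6 CPM (0.64 ± 0.10, adjusted p = 0.00965). Cd274, the checkpoint ligand PD-L1, had a log2 fold change of 1.26 (adjusted p = 0.0479), and H2-K1, a class I histocompatibility antigen, one of 0.84 (adjusted p = 0.0292). Krt19, a keratin and the only epithelial marker called, was at 5.99, 8.18 and 6.67 CPM in Scm and at 8.66, 18.9 and 17.7 CPM in R-Scm 24 h (1.12 ± 0.25, adjusted p = 0.0499). It made up nearly all of the summed epithelial markers, which were 6.20 to 9.21 CPM in Scm and 9.59 to 19.6 CPM in R-Scm 24 h, and their part in the other results was not tested.

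Ifi205, a sensor of the interferon-inducible p200 family, and Sp100, a nuclear body protein, had 0 counts in each Scm library. Their counts in R-Scm 24 h replicates 1 to 3 were 25, 6 and 9 for Ifi205 and 19, 7 and 5 for Sp100. Against a floor of 3 counts per Scm library they were at least 4.02-fold and at least 3.16-fold higher. The fitted log2 fold changes of 6.73 and 6.38 depend on the default prior count of edgeR's fit, not on the 2 used for log2 CPM. In all, 19 DEGs had an Scm mean under 1 CPM, where few reads set the fold.

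For 1 called gene the reads are shared among identifiers. The Ndor1 identifier ENSMUSG00000115018 was at 0.0535, 0.901 and 1.17 CPM in Scm and at 12.4, 12.2 and 15.6 CPM in R-Scm 24 h (4.31 ± 0.82 on the log2 scale, adjusted p = 0.0305). Of its 50-base stretches 99.9% also occur under other identifiers named Ndor1. Summed over those identifiers, Ndor1 stood at 32.0 to 35.4 CPM in Scm and at 30.7 to 41.4 CPM in R-Scm 24 h (0.06 on the log2 scale, adjusted p = 0.895), so the gene as a whole did not pass the test. Of the 91 DEGs, 9 shared more than 20% of their 50-base stretches with other genes (Gm4070, Gsta1, Gvin1, H2-Q4, Ifit3, Ifit3b, Ndor1, Oas1a and Tgtp1), and their values are uncertain to that degree. Exons of 25 DEGs overlapped a gene on the other strand and those of 11 a gene on the same strand, and the use of strand in counting is not given in the sources used here.

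The 13 lower DEGs were led, by adjusted p, by Slc6a4. It was at 14.7, 16.6 and 14.6 CPM in Scm, at 3.37, 3.59 and 4.11 CPM in Rcm, and at 6.30, 7.20 and 6.98 CPM in R-Scm 24 h. Its log2 fold change was -1.16 ± 0.15 against Scm (adjusted p = 0.00192) and 0.88 ± 0.16 against Rcm (adjusted p = 0.0207), so that it differed from both steady media. Tafa5 was at 13.2, 12.0 and 12.7 CPM in Scm, at 1.996, 2.06 and 3.05 CPM in Rcm, and at 7.07, 6.06 and 7.19 CPM in R-Scm 24 h, with -0.90 ± 0.16 against Scm (adjusted p = 0.0204) and 1.502 ± 0.18 against Rcm (adjusted p = 0.00119). For both genes the R-Scm 24 h libraries lay between the steady media and overlapped neither.

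Hey1, a Notch target and transcriptional repressor, was at 8.29, 9.98 and 8.45 CPM in Scm, 1.81, 2.20 and 2.24 CPM in Rcm, and 4.65, 2.90 and 3.36 CPM in R-Scm 24 h (log2 fold change against Scm -1.29 ± 0.22, adjusted p = 0.0125). Fgf13, an intracellular member of the FGF family, was at 13.1, 14.3 and 15.9 CPM in Scm and at 7.42, 9.28 and 8.16 CPM in R-Scm 24 h (-0.80 ± 0.14, adjusted p = 0.0192). Both lay in R-Scm 24 h below every Scm library and above every Rcm library, which were 5.84 to 6.67 CPM for Fgf13. Their differences from Rcm did not pass the test (adjusted p = 0.165 for Hey1 and 0.27 for Fgf13). Nfatc1 (-0.58), Uap1l1 (-0.63), Fam102a (-0.68), Shc2 (-0.78), the chemokine receptor Cxcr4 (-1.30), the glutamate receptor Grm7 (-1.39) and Gm43909 (-2.08, chosen after its values were seen) made up the lower DEGs with the glutathione transferases. Of the alternative fits that tested them, Uap1l1 was called in 9 of 14, Shc2 in 8 of 14 and Fam102a in 4 of 14. Nfatc1 was called in 3 of 14, Grm7 in 5 of 13, Cxcr4 and Gm43909 in 3 of 13 each, and Gsta1 in 2 of 13.

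Gsta4, which detoxifies the lipid peroxidation product 4-hydroxynonenal, was at 32.8, 38.5 and 35.9 CPM in Scm, 38.7, 41.8 and 43.8 CPM in Rcm, and 41.6, 42.6 and 39.8 CPM in R-Scm 12 h. In R-Scm 24 h it was at 24.7, 20.6 and 20.1 CPM, below every library of the other groups named here. Its log2 fold change was -0.72 ± 0.10 against Scm (adjusted p = 0.00443) and -0.93 ± 0.10 against Rcm (adjusted p = 0.00086). Gsta1, its neighbour on chromosome 9, was at 1.498, 1.46 and 1.03 CPM in Scm and at 0.530, 0.316 and 0.408 CPM in R-Scm 24 h (-1.65 ± 0.36, adjusted p = 0.0498). These were the only calls among 23 targets of the antioxidant factor NRF2, whose median was -0.14, and without R-Scm 24 h replicate 1 there was 1 call (Gsta4).

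The lipid genes by which the media differed in steady state were the contrast to the interferon genes. Of 21 cholesterol synthesis genes 0 were called in edgeR's test in either direction, 0 had an unadjusted p under 0.05 and 0 were called by DESeq2. The list's median log2 fold change was 0.01 (range -0.36 to 0.50). In the comparisons that share these libraries, the medians were 0.76 for Rcm against Scm, -0.74 for R-Scm 24 h against Rcm and -0.66 for R-Scm 12 h against Scm. Without R-Scm 24 h replicate 1 the median was -0.28, since that library alone stood above Scm, at 0.40 beside -0.23 and -0.21.

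Hmgcs1, the synthase at the entry of sterol synthesis, was at 301, 254 and 261 CPM in Scm, 514, 533 and 434 CPM in Rcm, 171, 175 and 127 CPM in R-Scm 12 h, and 402, 228 and 194 CPM in R-Scm 24 h. Its log2 fold change was 0.01 ± 0.21 (adjusted p = 0.991), with replicate 1 above all Scm libraries and replicates 2 and 3 below them. Scd1, the desaturase that makes monounsaturated fatty acids, was at 283, 257 and 272 CPM in Scm and at 435, 237 and 215 CPM in R-Scm 24 h (0.13 ± 0.18, adjusted p = 0.87). Fdps, a synthase of the sterol route, was at 188, 198 and 180 CPM in Scm and at 280, 161 and 163 CPM in R-Scm 24 h (0.10 ± 0.15, adjusted p = 0.885). Both showed the same split, with replicate 1 above Scm and the other replicates below. Without replicate 1 the log2 fold changes of Hmgcs1, Fdps and Scd1 were -0.37, -0.22 and -0.26.

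Other genes named for this pathway did not pass the test. Insig1, which holds SREBP back, was at -0.20 ± 0.19 on the log2 scale (adjusted p = 0.769). The factors Srebf1 and Srebf2 had -0.17 ± 0.10 (adjusted p = 0.643) and -0.05 ± 0.14 (adjusted p = 0.946), and the fatty acid synthase Fasn had -0.14 ± 0.11 (adjusted p = 0.719). A p above the threshold does not show that levels were equal.

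Genes of ferroptosis did not pass the test either. Of 25 ferroptosis regulators 0 were called by edgeR or DESeq2, 3 had an unadjusted p under 0.05, and the median was -0.05. Gpx4, the peroxidase that removes lipid hydroperoxides, was at 108, 124 and 119 CPM in Scm and at 126, 125 and 119 CPM in R-Scm 24 h (log2 fold change 0.08 ± 0.08, adjusted p = 0.8). Slc7a11, the cystine importer, varied widely between libraries, at 30.4, 47.4 and 54.8 CPM in Scm and at 61.9, 40.5 and 45.9 CPM in R-Scm 24 h (0.16 ± 0.39, adjusted p = 0.929). Acsl4, which loads polyunsaturated fatty acids for lipid synthesis, had a log2 fold change of 0.13 ± 0.13 (adjusted p = 0.779). Apoh, which encodes a serum apolipoprotein, gave 0 to 2 reads per Scm library and 2 to 5 per R-Scm 24 h library and was left out of the test.

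**Figure D4:**
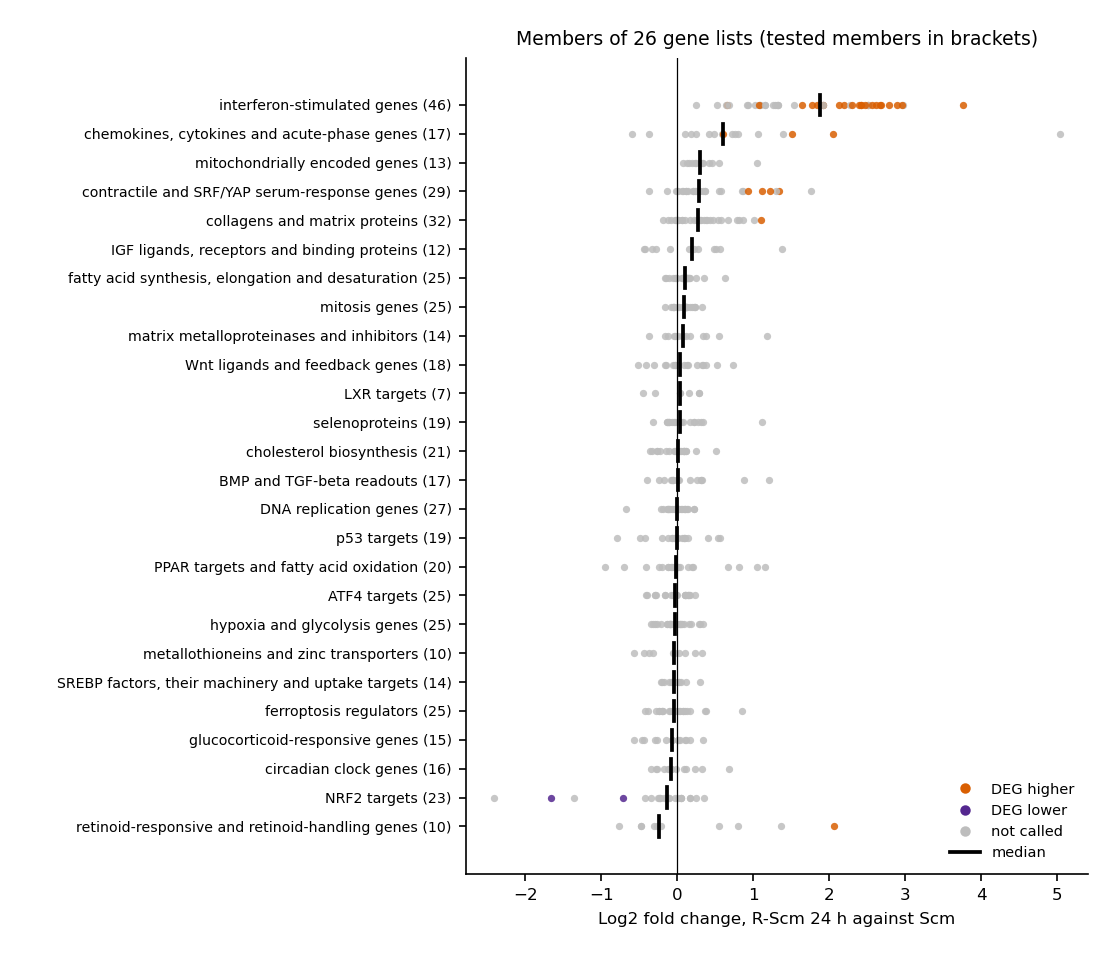
Log2 fold change of R-Scm 24 h against Scm (horizontal axis) for the tested members of 26 gene lists, 1 row per list, with higher DEGs, lower DEGs and genes not called in different colours and the list median as a bar. The interferon list, with a median of 1.88, stands apart from the others, while the cholesterol, SREBP and ferroptosis lists are centred near 0.

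Of the 26 lists, 20 held 0 calls in edgeR's test. When R-Scm 24 h replicate 1 was left out, 2 of these 20 held 1 call each, Lpin1, a phosphatidate phosphatase, in the SREBP list (log2 fold change -0.76, adjusted p = 0.00584) and Plk2, a polo-like kinase, in the p53 list (0.69, adjusted p = 0.0159). With all libraries, the medians of the 20 lists ran from -0.08 to 0.30, 0 to 6 members of each had an unadjusted p under 0.05, and DESeq2 called 2 of their 367 tested members. The list with the highest of these medians was that of the 13 mitochondrially encoded genes (0.30, all 13 positive). Selenoproteins (19 tested, 0.03) and fatty acid synthesis (25 tested, 0.10) were close to the median of all genes.

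The opposite exchange was used as a comparison that shares no library with this one. S-Rcm 24 h against Rcm gave 34 DEGs (0.221%), 10 higher (0.065%) and 24 lower (0.156%). If a gene kept to its former medium, one higher in R-Scm 24 h than in Scm would be lower in S-Rcm 24 h than in Rcm. Of the 78 higher DEGs, 65 had a negative log2 fold change there, 14 were called lower and 0 were called higher, with a median of -0.83 beside -0.0061 over all genes, of which 51.2% were negative. Of the 13 lower DEGs, 9 had a positive log2 fold change in the opposite exchange, and Slc6a4 and Tafa5 were called higher.

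**Figure D5:**
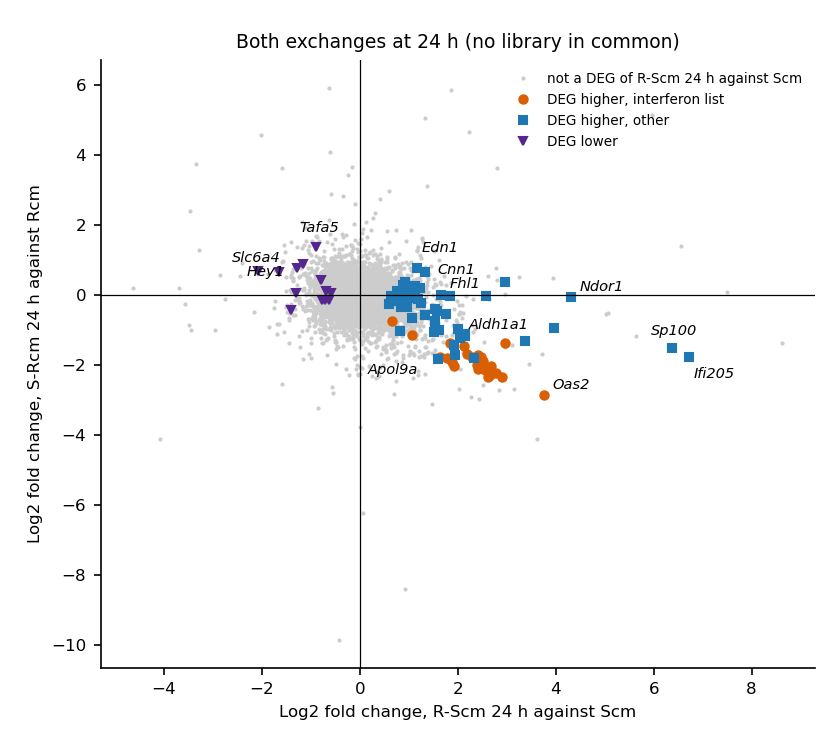
Log2 fold change of S-Rcm 24 h against Rcm (vertical axis) against that of R-Scm 24 h against Scm (horizontal axis) for the 15381 genes tested, with DEGs of the second comparison marked by group. Interferon-list DEGs all lie at the lower right, Slc6a4 and Tafa5 at the upper left, and Fhl1, Edn1 and Cnn1 at or above 0 on the vertical axis.

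The interferon genes were below Rcm in the opposite exchange. All 23 interferon-list DEGs had a negative log2 fold change there and 10 were called lower, and the list's median was -1.68. Isg15 was at 31.5, 36.0 and 49.4 CPM in Rcm and at 10.4, 9.78 and 10.9 CPM in S-Rcm 24 h (log2 fold change -1.91 ± 0.30, adjusted p = 0.0239). Cmpk2 was at 4.30, 6.79 and 4.98 CPM and at 1.20, 1.45 and 2.09 CPM (-1.76 ± 0.29, adjusted p = 0.0239). Both genes were in each S-Rcm 24 h library below every Rcm library. Of the 55 other higher DEGs, 42 had a negative log2 fold change and 4 were called lower, namely Apol9a (-1.82), Gbp9 (-1.80), Cxcl10 (-1.04) and H2-Q4 (-1.02).

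Slc6a4 and Tafa5 were above Rcm in the opposite exchange. Slc6a4 was at 5.18, 7.54 and 8.10 CPM in S-Rcm 24 h, above the 3.37 to 4.11 CPM of Rcm (log2 fold change 0.91 ± 0.16, adjusted p = 0.0239). Tafa5 was at 5.96, 5.98 and 6.77 CPM in S-Rcm 24 h against 1.996 to 3.05 CPM in Rcm (1.38 ± 0.18, adjusted p = 0.00831). At 24 h the MEFs of both exchanges held these RNAs at an intermediate level, whichever medium they came from.

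Other DEGs had no such mirror. Edn1 was at 26.8, 27.3 and 26.1 CPM in S-Rcm 24 h, above the 14.9 to 16.9 CPM of Rcm (log2 fold change 0.77 ± 0.17, adjusted p = 0.089), and Cnn1 at 8.49, 6.76 and 6.26 CPM above its 4.18 to 4.92 CPM (0.66 ± 0.23, adjusted p = 0.431). Neither passed the test there, but every library of both exchanges at 24 h was above every library of both steady media for these genes. Thbs1 (0.01 ± 0.18), Fhl1 (0.02 ± 0.18), Ccn2 (0.21 ± 0.20) and Gsta4 (-0.13 ± 0.10) also did not pass the test in the opposite exchange. For these genes, and for the other DEGs alike, the former medium, the exchange itself and the time point cannot be told apart from these libraries.

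The test of the difference between the exchanges called 144 of 15381 genes (0.936%), or 116 without R-Scm 24 h replicate 1. The 144 held 53 of the 78 higher DEGs and 6 of the 13 lower DEGs. The DEGs were chosen on 1 of its arms, so these counts are a description. R-Scm 24 h replicate 1 was the highest of its group for 22 of the 23 interferon-list DEGs and for 31 of the 55 other higher DEGs.

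DEGs lay near each other more often than other genes did. Another DEG lay within 200 kb of 26 of the 91 DEGs (28.6%), against 396 of 15269 other tested genes with a position (2.59%). The groups included Gbp2, Gbp2b, Gbp3 and Gbp7 at chr3:142530342-142638008, Ifit1, Ifit3 and Ifit3b at chr19:34583531-34650009, Aldh1a1 and Aldh1a7 at chr19:20492715-20727562, Adamts1 and Adamts5 at chr16:85793827-85901828, H2-K1, Psmb8 and Tap1 at chr17:33996017-34201454 and Gsta1 and Gsta4 at chr9:78182774-78242684 (GRCm38, gene bodies of GENCODE M21). Many of these are tandem families whose members have similar sequences, and no test was made of this clustering.

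Over 14 alternative fits (other scaling, filters, tools, a replicate block or a library left out), 10 of the 91 DEGs were called in every fit that tested them. Of these, Gbp2b, Aldh1a1, Fhl1, Aldh1a7, Cxcl10, Edn1, Cd24a, Tgtp1 and Cmpk2 were higher and Slc6a4 was lower. Each of the 91 DEGs kept its sign in every fit that tested it. On GRCm38, Slc6a4 (ENSMUSG00000020838) lies at chr11:76998603-77032340 on the plus strand, Fhl1 (ENSMUSG00000023092) at chrX:56731787-56793346 on the plus strand and Cd24a (ENSMUSG00000047139) at chr10:43578284-43584265 on the plus strand, and the exons of these 3 overlap no other annotated gene. Edn1 (ENSMUSG00000021367) lies at chr13:42301476-42307990 on the plus strand with exons overlapping Gm47118 on the other strand, and Cxcl10 (ENSMUSG00000034855) at chr5:92346638-92348889 on the minus strand with exons overlapping Art3 on the other strand. Aldh1a1 (ENSMUSG00000053279) and Tafa5 (ENSMUSG00000054863), the latter called in fewer alternatives, lie at chr19:20492715-20643465 and chr15:87544299-87759364 on the plus strand.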

How the data were processed

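RNA was isolated by the authors (RNeasy mini kit), made into libraries (ABclonal mRNA-seq Lib Prep kit), read on the NovaSeq and aligned to GRCm38 by HISAT2. They deposited the raw count of reads on each of 55487 genes, with no normalization. The counter, its use of strand and of reads with several alignments, and the annotation are not given in the sources used here. Total counts of all 18 libraries ran from 14534906 to 20313715, and 0 columns were left out. Columns were assigned to groups from the titles, which number the R-Scm 24 h libraries as replicates 1 to 3 while the column names use 1, 3 and 4.

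Genes were kept by edgeR's filterByExpr, which left 15381 and removed 40106. TMM factors were 0.963 to 1.03. A robust quasi-likelihood fit used the 18 libraries (12 residual degrees of freedom, biological coefficient of variation 0.173), and the contrasts were R-Scm 24 h against Scm, S-Rcm 24 h against Rcm, and the difference of both. Genes with an adjusted p (Benjamini-Hochberg over all genes tested) under 0.05 and a log2 fold change outside -0.58 to 0.58 were DEGs. Values per library are TMM-scaled CPM, and log2 CPM used a prior count of 2. An exact permutation test of 3 against 3 libraries cannot give a p below 0.1 and was not used. Counting limits cover counting error only, since the reads carry no molecular identifiers.

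Genes were named by a rule that takes the 15 largest rises and 15 largest falls among DEGs whose groups do not overlap and whose mean reaches 1 CPM, every DEG of a gene list, and Srebf1, Srebf2, Insig1, Hmgcs1, Fdps, Scd1, Fasn, Gpx4, Slc7a11, Acsl4 and Apoh. Some other genes that the rule names are not reported here. The comparison, lists and rule were chosen with earlier results of these data known. Of the 7 marker lists, those of endothelial (0.343 to 0.962 CPM summed in Scm, 0.883 to 1.58 in R-Scm 24 h), skeletal muscle (1.11 to 2.19 and 2.18 to 3.51), adipocyte (5.63 to 7.13 and 4.41 to 6.53) and neural and glial cells (66.6 to 77.8 and 78.2 to 84.5) held 0 DEGs.

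The alternatives were RLE and upper-quartile scaling, a fit of the compared groups alone, a block for the replicate number, DESeq2 on either set of libraries, leaving out each library, no filter or a minimum of 10 counts per library, and stricter or looser thresholds. Leaving out R-Scm 24 h replicate 1 together with Rcm replicate 3, and summing identifiers that share a symbol, were chosen after seeing the data. Shared 50-base stretches came from the GENCODE M21 transcripts and promoters from RefSeq. The test was tried on simulated data. Python 3.11.15 with matplotlib 3.10.9 and R 4.3.3 with DESeq2 1.42.0, edgeR 4.0.16 and limma 3.58.1 were used.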

Additional observations from a re-analysis of the deposited data

Results flagged for a closer look

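For 35 of the 48 named DEGs, the log2 fold change of R-Scm 24 h against Scm differed from that of S-Rcm 24 h against Rcm in edgeR's test of the difference. The difference was positive for 30 and negative for 5. The named DEGs were chosen on the R-Scm arm, and a gene that keeps to its former medium in both exchanges gives effects of opposite sign. As log2 values, the antiviral effectors differed by 6.62 for Oas2, 5.24 for Oasl2, 5.02 for Ifi44, 4.94 for Oas1a, 4.94 for Usp18, 4.71 for Mx2, 4.70 for Ifit1, 4.38 for Ifit3, 4.37 for Xaf1, 4.32 for Zbp1, 4.23 for Cmpk2, 4.13 for Parp14, 3.88 for Ifit3b, 3.79 for Isg15, 3.56 for Rtp4 and 1.41 for Ifi35. The GTPases differed by 4.68 for Tgtp1, 4.53 for Gbp7, 4.12 for Gbp9, 4.05 for Gbp3, 3.94 for Iigp1, 3.40 for Igtp and 3.21 for Gbp2, and the antigen-processing genes by 3.59 for Psmb8 and 2.22 for Tap1. The chemokines and complement differed by 3.26 for Ccl5, 2.55 for Cxcl10 and 0.85 for C3, and Aldh1a1 by 3.20. Thbs1 differed by 1.09, with a log2 fold change of 1.10 in the R-Scm arm and 0.01 in the S-Rcm arm. The negative differences were -2.32 for Gsta1, -2.28 for Tafa5, -2.08 for Hey1, -2.07 for Slc6a4 and -1.22 for Fgf13. Groups of 3 libraries are too small to test for a single library that stands apart.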

How the results depend on the processing

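The count of 91 DEGs was within 1.5 times of its value with RLE scaling (90), upper-quartile scaling (79), no filter (64), the adjusted p alone (94) and identifiers summed by symbol (70). It was 46 with at least 10 counts in every library, 35 with edgeR on the compared groups alone (20 of them among the 91), 188 with DESeq2 on 18 libraries (88 shared), 170 with DESeq2 on the compared groups (75 shared) and 21 at an adjusted p under 0.01. Leaving out each library in turn gave 17 to 92 DEGs. The opposite exchange, with 34 DEGs, gave 108 and 150 with DESeq2, 3 at an adjusted p under 0.01, and 0 to 38 with a library left out. The counts of 0 in edgeR's test, without Rcm replicate 2 or S-Rcm 24 h replicate 3, stood beside 762 and 880 genes at an unadjusted p under 0.05. The difference between the exchanges, with 144 genes, gave 271 and 252 with DESeq2, 71 at an adjusted p under 0.01, and 80 to 233 with a library left out. The cause of these changes was not tested.

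The replicate numbers gave no sign of pairing, although 3 libraries per group are too few to show that it is absent. Libraries of the same number in Scm and R-Scm 24 h had correlations of 0.0999, -0.0328 and -0.0275. For libraries of different numbers the correlations ran from -0.123 to 0.144. A replicate block gave 59 DEGs, 57 of them among the 91. For the named genes, 597 values under alternatives kept their direction and their side of the threshold, 248 kept their direction but no longer passed, and 13 reversed, all of them for genes that were not DEGs. Without R-Scm 24 h replicate 1, Scd1 was at -0.26, Fdps at -0.22, Hmgcs1 at -0.37 and Slc7a11 at -0.031, and without Rcm replicate 3 as well they were at -0.27, -0.23, -0.38 and -0.039. Hmgcs1 was at -0.026 with the replicate block. Over all fits that left out 1 library, the log2 fold change ran from -0.26 to 0.32 for Scd1, -0.22 to 0.24 for Fdps, -0.37 to 0.22 for Hmgcs1, -0.21 to 0.065 for Srebf2 and -0.049 to 0.35 for Slc7a11. The highest value came without R-Scm 24 h replicate 3 for Scd1, Fdps and Hmgcs1 and without replicate 2 for Srebf2. Of the list medians, 414 values stayed within the spread between libraries and 21 moved. With 9 DEGs under a mean of 1 CPM, depth limits what can be said of rare RNAs.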
